A study of Mus musculus with 9 samples.

Results

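The SR proteins and the heterogeneous nuclear ribonucleoproteins (hnRNPs) are the general RNA-binding proteins that decide, together with the spliceosome, which exons a pre-mRNA keeps. Their genes were taken by name from RNA-seq of sorted mouse inner ear hair cells (HCs). All genes named *Srsf* with a number or starting with *Hnrnp* were included, and 3 names ending in -ps were left out. This gave 31 genes, 11 SR and 20 hnRNP, of 43808 genes in the files. Of these, 30 (10 SR and 20 hnRNP) reached 20 reads in 2 or more libraries of a genotype, as did 15184 genes in all, and these were compared between genotypes. *Srsf1*, which encodes the best known SR activator, was listed at 0 reads in all 9 libraries. It is used by most cells, and the 5 red blood cell marker genes that were checked were listed at 0 as well, so no level was drawn from this value.

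The libraries came from postnatal day 1 (P1) mice of the diminuendo line, 3 homozygous mutant *Mir96* Dmdo/Dmdo (Hom, mice 43, 46 and 47), 3 heterozygous *Mir96* Dmdo/+ (Het, mice 45, 48 and 51) and 3 wild-type *Mir96* +/+ (WT, mice 44, 55 and 59). All 9 mice, the WT included, carried the *Atoh1*/nGFP reporter, which marks HCs with nuclear GFP, on a mixed background from a cross of C3HeB/FeJ with C57BL6. The cells of 1 mouse, both ears and both the cochleae and the vestibular organs together, made 1 library, after sorting for GFP and for the epithelial surface protein CD326. Cochlear and vestibular HCs are therefore not separated, and in bulk RNA fewer cells of a type and less RNA per cell cannot be told apart.

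SR proteins carry RNA recognition motifs and a tail of arginine-serine repeats. They bind exonic enhancers and mostly favour inclusion of the exon, and the SRPK and CLK kinases control them by phosphorylating the tail. The hnRNPs coat nascent RNA through other RNA-binding domains, often silence exons, and also act in the export, stability and translation of mRNA. Many genes of both families limit their own output by splicing in exons that send the transcript to nonsense-mediated decay. In HCs, splicing is known for the neural microexon program of SRRM4 and SRRM3, on which hearing and balance in mice depend.

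The Dmdo allele changes 1 base in the seed of miR-96, the stretch at bases 2 to 8 that pairs with target mRNAs, so the first question was which of the 30 genes carry a match to the old or the new seed. Mature mouse miR-96-5p, encoded on the minus strand at chr6:30169506-30169528 (GRCm38.p6, RefSeq), is printed here with its seed in capitals because both sites below are read from it.
miR-96-5p: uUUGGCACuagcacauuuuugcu
The substitution is A7U, counted from 1 at the 5′ end of the mature RNA with the wild-type base first. A wild-type seed match in an mRNA reads GTGCCAA and a Dmdo seed match reads GAGCCAA. In the longest annotated 3′ UTR of each gene, the wild-type match occurred in 2 of the 30 genes (6.67%), against 9.8% of 13024 protein-coding genes that passed the read filter. The Dmdo match also occurred in 2 of 30 (6.67%), against 10.4%. These are the 5 sites with the bases around them, the match in capitals.
Srsf10, wild-type seed match: cagcacttgctGTGCCAAgttgtgtgtgtt
Hnrnpa1, wild-type seed match: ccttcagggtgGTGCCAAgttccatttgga
Hnrnpr, Dmdo seed match: attttatgctcGAGCCAAgaatcctttaag
Hnrnpr, second Dmdo seed match: agcttgtcagaGAGCCAAgttttgaattaa
Hnrnpu, Dmdo seed match: aagtaccagcaGAGCCAAaagctggggaag
The *Srsf10* site lay at bases 2061 to 2067 of a 3′ UTR of 2725 bases (gene at chr4:135855747-135869908, plus strand), and the *Hnrnpa1* site at bases 436 to 442 of 717 (chr15:103240432-103246692, plus strand). In *Hnrnpr* (chr4:136310942-136359447, plus strand) the sites began at bases 7783 and 16997 of a UTR of 19422 bases, and in *Hnrnpu* (chr1:178321108-178337797, minus strand) at base 2275 of 5014. A match is a description of the letters and does not show that the miRNA binds there.

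None of the 4 genes with a seed match was called between any genotypes. Of all genes tested, 1.15% were called between Hom and WT, 0% between Het and WT and 0.00659% between Hom and Het. A count of 0 of 4 therefore says little about these genes. *Srsf10*, which acts as a splicing repressor when dephosphorylated, had 36.1, 11.9 and 48.6 CPM (counts scaled to a common library size by TMM) in Hom HCs, 50.6, 46.3 and 45.4 CPM in Het HCs and 37.5, 43.2 and 75.5 CPM in WT HCs. The Hom and WT values overlapped, with Hom 46 below and WT 59 above all others. The fitted log2 fold change of Hom over WT was -0.69 (SE 0.48, adjusted p = 0.59), and it was 0.09 without those 2 libraries. *Hnrnpa1*, an hnRNP that represses exons through exonic silencers, had 95.7, 118 and 78.0 CPM in Hom HCs, 97.8, 89.7 and 66.1 CPM in Het HCs and 53.9, 77.1 and 75.2 CPM in WT HCs. All 3 Hom libraries were above the highest WT library, the closest by under 1 CPM, and the fold change did not pass the test (log2 0.50, SE 0.33, adjusted p = 0.56). For *Hnrnpr*, known for carrying beta-actin mRNA in axons, the 3 Hom libraries held 90.1 to 97.9 CPM and the 3 WT libraries 66.7 to 91.4 CPM (log2 0.28, SE 0.30, adjusted p = 0.77). Its 3 Het libraries held 83.6 to 87.4 CPM, all below the Hom libraries, a separation that 6.95% of all genes tested had. *Hnrnpu* is described with the genes of low level below.

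Library totals were between 18175317 and 34873964 reads in genes, and the 30 genes took between 0.529% (WT 44) and 0.699% (WT 55) of them. WT 59 stood apart from the other libraries on the first principal component of all genes and Hom 46 on the second. Reads of mitochondrial genes made up 1.48%, 1.56% and 1.33% of counts in Hom, 1.61%, 0.815% and 1.02% in Het and 0.591%, 0.634% and 1.22% in WT libraries, so that every Hom library was above every WT library. The methods of the study also note a lower RNA integrity in a WT and a Hom sample, not named by mouse number. The part of either measure in the differences below was not tested. Summed over 12 HC markers such as *Myo7a* and *Otof*, levels were 8817 to 10942 CPM in Hom, 10489 to 14379 CPM in Het and 10638 to 16087 CPM in WT libraries, and all 12 markers were measured in enough reads to be compared. A mesenchyme list of 8 genes summed to 906 CPM in Hom 46, against 129 to 269 CPM in the 8 other libraries, and a glia list of 7 genes to 470 CPM in Hom 46, against 113 to 370 CPM. The Y-linked *Ddx3y* exceeded *Xist* in all 3 Hom, 2 of 3 Het and 1 of 3 WT libraries, so the transcripts that mark sex were not balanced between the genotypes. Their part in the differences below was not tested beyond a model with this contrast as a term, in which the log2 fold change of Hom over WT was -0.95 for *Hnrnpd*, -0.63 for *Hnrnpa2b1*, -0.49 for *Srsf6*, -0.64 for *Hnrnpa0* and 0.46 for *Hnrnpll*, none of them called. That model called only 12 of all 15184 genes between Hom and WT, so the lack of calls says little about these genes.

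**Figure D1:**
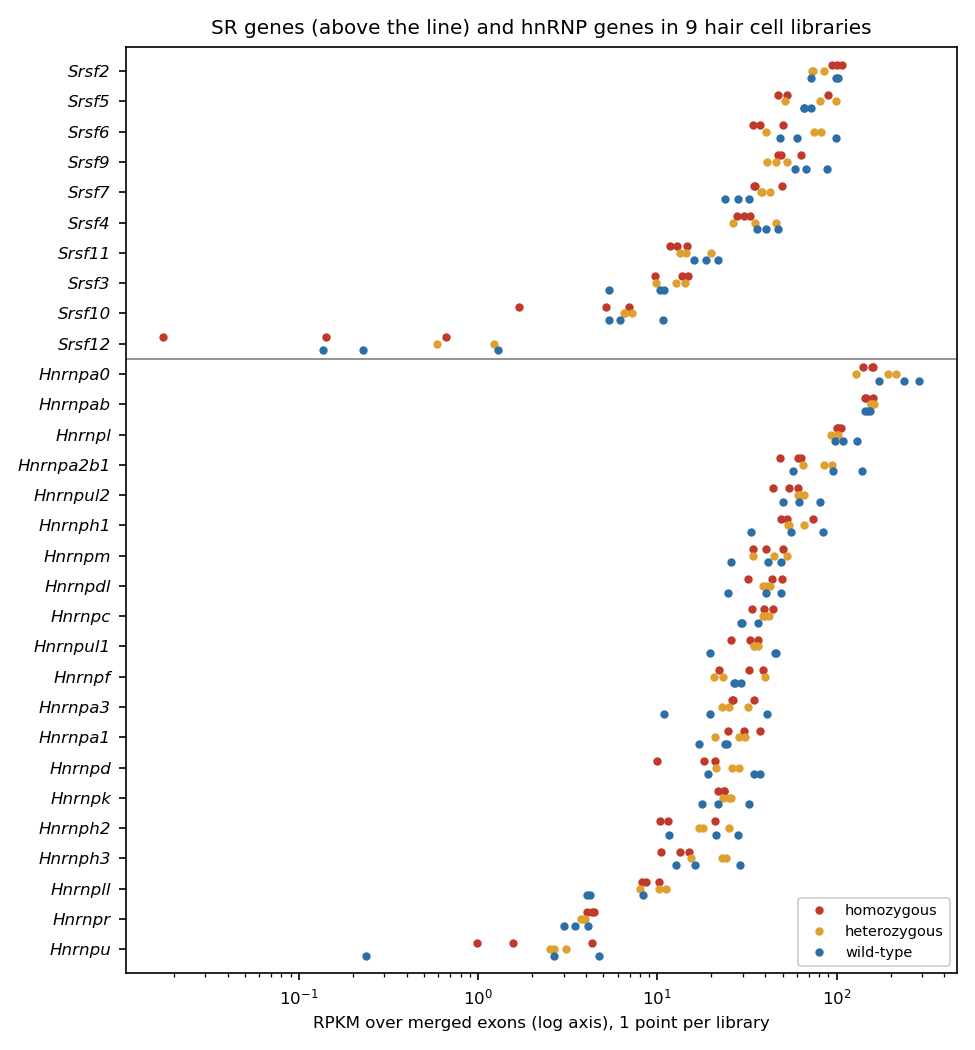
Level of the 30 genes per length of their merged exons (RPKM, log axis), 1 point per library, SR genes above the grey line and hnRNP genes below it, with Hom, Het and WT points in each row from top to bottom. Of the 30 genes, 25 had a mean of 10 RPKM or more, and *Srsf12* and *Hnrnpu* were lowest and most scattered; the Het 51 library of *Srsf12*, at 0, has no point on the log axis.

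Per length of the merged exons (RPKM, the CPM per kilobase), 25 of the 30 genes had a mean of 10 RPKM or more over the 9 libraries. The highest level was that of *Hnrnpa0*, which binds and stabilizes AU-rich mRNAs, at 188 RPKM. It was followed by *Hnrnpab*, an A/B-type hnRNP, at 152 RPKM and *Hnrnpl*, which binds CA-rich RNA, at 104 RPKM. Among the SR genes the highest were *Srsf2*, a strong activator of exons that remains in the nucleus, at 89.8 RPKM, *Srsf5* at 69.4 RPKM and *Srsf6* at 58.6 RPKM. SR and hnRNP genes had like median levels, 35.8 and 31.8 RPKM. At the other end, *Hnrnpr* had 3.88 RPKM over exons of 22199 bases, most of them in its long 3′ UTR, so its per-length level depends on how much of that UTR is used.

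*Hnrnpab* and *Hnrnpl* were the 2 genes of highest precision between Hom and WT. *Hnrnpab* had 445, 400.5 and 406 CPM in Hom HCs, 435, 449 and 435 CPM in Het HCs and 425, 414 and 400.2 CPM in WT HCs. The log2 fold change of Hom over WT was 0.01, with a 95% interval of -0.44 to 0.47. *Hnrnpl* had 600.02, 631 and 607 CPM in Hom HCs, 601, 603 and 556 CPM in Het HCs and 643, 770.5 and 585 CPM in WT HCs, a log2 fold change of -0.12 (interval -0.58 to 0.33). These were the 2 of 30 genes (background 0.836% of all genes tested) whose whole interval lay within a 1.5-fold change in either direction. For the other 28 genes these data left room for a change of that size in at least one direction. The spread between mice was widest in WT: the median coefficient of variation of CPM over the 30 genes was 17.2% in Hom, 15.9% in Het and 31.2% in WT HCs, and 18 of the 30 genes varied most in WT, as did 45.4% of all genes tested.

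To ask whether the level of any SR or hnRNP gene depended on the Dmdo allele, the 3 genotypes were compared in 1 model over all 15184 genes, and a gene was called at an adjusted p under 10% and a fold change above 1.5. Between Hom and WT HCs, 0 of the 30 genes were called by edgeR, against 1.15% of all genes tested. DESeq2 called 0 of the 30 (background 6.36%) and limma-voom with sample weights 0 of the 30 (background 2.23%). At an unadjusted p under 0.05, 4 of the 30 were lower in Hom HCs (background 8.19%) and 1 was higher (background 4.92%). In all, 13 of the 30 fold changes were above 0 (background 49.1%), and the median log2 fold change was -0.11, beside -0.02 for all genes. The median of the 30 genes turned to 0.071 with the mouse number ranges described below as a term (all genes 0.033) and to 0.0077 with the *Xist* and *Ddx3y* term (all genes 0.018). It was nearer to 0 at -0.022 without Hom 43, -0.032 without WT 59 and -0.015 without both WT 59 and Hom 46, among other settings. With library totals in place of TMM it was -0.030, but the median of all genes moved up with it, to 0.067. It was farther from 0 at -0.187 without Hom 46 (all genes -0.026) and -0.126 without WT 44 (all genes 0.053). By family the median was -0.44 for the 10 SR genes, 3 of them above 0, and -0.02 for the 20 hnRNP genes, 10 of them above 0. With the mouse number term, the SR values above 0 were *Srsf3* 1.06, *Srsf7* 0.44, *Srsf5* 0.17 and *Srsf2* 0.12. Those below 0 were *Srsf4* -0.14, *Srsf6* -0.17, *Srsf9* -0.51, *Srsf10* -0.51, *Srsf11* -0.52 and *Srsf12* -1.56. With the *Xist* and *Ddx3y* term, *Srsf12* (0.85) was above 0 as well. Whether the families differ was not tested.

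**Figure D2:**
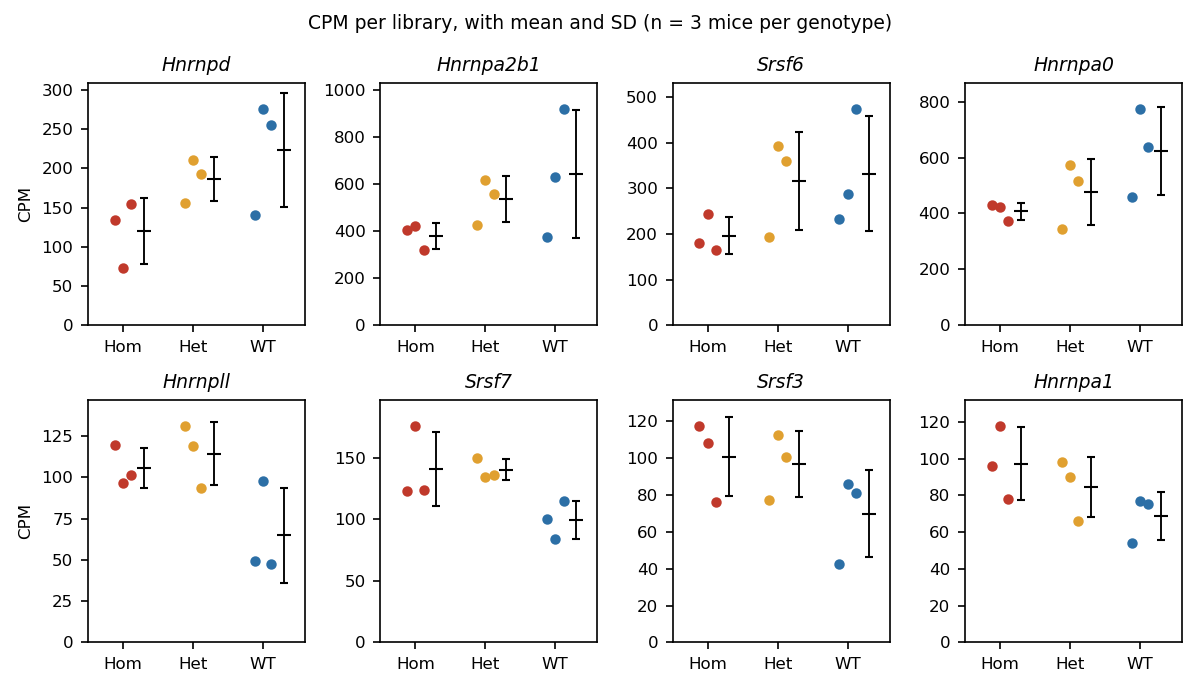
CPM of the 4 genes of smallest p in each direction between Hom and WT, 1 point per library, with mean and SD (n = 3 mice per genotype) to the right of the points. The Hom and WT points overlap for *Hnrnpd*, *Hnrnpa2b1* and *Srsf6* in the upper row and for *Hnrnpll* and *Srsf3* in the lower row; for *Hnrnpa0*, *Srsf7* and *Hnrnpa1* they do not.

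The 4 genes of smallest p among those with lower fitted values in Hom HCs were *Hnrnpd*, *Hnrnpa2b1*, *Srsf6* and *Hnrnpa0*. *Hnrnpd*, better known as AUF1, binds AU-rich elements and promotes the decay of mRNAs that carry them. It had 134, 73.4 and 154 CPM in Hom HCs, 156, 210.1 and 192 CPM in Het HCs and 141, 276 and 255 CPM in WT HCs. WT 44 lay among the Hom libraries, whereas WT 55 and WT 59 were above every Hom and Het library. The log2 fold change of Hom over WT was -0.89 (SE 0.31, adjusted p = 0.22). *Hnrnpa2b1*, which binds purine-rich RNA and is known for sorting mRNAs and miRNAs, had 403, 419 and 317 CPM in Hom HCs, 426, 618 and 559 CPM in Het HCs and 376, 629 and 918 CPM in WT HCs. Again WT 44 was within the Hom range and WT 59 was the highest of the 9 (log2 -0.76, SE 0.28, adjusted p = 0.26).

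*Srsf6*, an SR activator that shares its domain structure with *Srsf4* and *Srsf5*, had 181, 243 and 165 CPM in Hom HCs, 194, 394 and 361 CPM in Het HCs and 233, 289 and 475 CPM in WT HCs. Hom 46 exceeded WT 44, and the other 2 WT libraries were above all Hom libraries (log2 -0.76, SE 0.30, adjusted p = 0.29). *Hnrnpa0* had 429, 422 and 374 CPM in Hom HCs, 345, 572 and 517 CPM in Het HCs and 459.6, 774 and 639 CPM in WT HCs. Its Hom and WT libraries did not overlap, although WT 44 was near the Hom libraries (log2 -0.61, SE 0.25, adjusted p = 0.30).

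For 3 of these 4 genes the call depended on WT 44, the only WT mouse numbered 47 or lower. Once it is left out, every Hom mouse has a number of 47 or lower and every WT mouse 48 or higher. Genotype and the mouse number ranges described below then cannot be told apart. Calls over all genes were 697 without it, against 175. Without WT 44, edgeR called 3 of the 30 genes lower in Hom HCs (background 4.66% of the genes tested without it): *Hnrnpd* (log2 -1.12), *Hnrnpa2b1* (log2 -1.02) and *Hnrnpa0* (log2 -0.78), with adjusted p of 0.046, 0.027 and 0.097, while *Srsf6* had an adjusted p of 0.10. Leaving out WT 59 moved the log2 fold change of *Hnrnpa2b1* to -0.41 (SE 0.28, adjusted p = 0.63) and that of *Srsf6* to -0.41 (SE 0.31, adjusted p = 0.67). It moved *Hnrnpd* and *Hnrnpa0* less, to -0.79 and -0.60. With 1 library left out at a time, *Hnrnpd* ran from -1.12 to -0.61 and *Hnrnpa0* from -0.78 to -0.43. Without both WT 59 and Hom 46, the log2 fold changes of *Hnrnpd*, *Hnrnpa2b1*, *Srsf6* and *Hnrnpa0* were -0.52, -0.47, -0.57 and -0.60. WT 44 was the lowest of the 3 WT libraries for 20 of the 30 genes and for 31.3% of all genes tested.

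In the other direction the 4 genes of smallest p were *Hnrnpll*, *Srsf7*, *Srsf3* and *Hnrnpa1* (given above). *Hnrnpll*, known for the alternative splicing of CD45 in activated T cells, had 119, 96.4 and 101 CPM in Hom HCs, 131, 119 and 93.4 CPM in Het HCs and 49.0, 97.7 and 47.6 CPM in WT HCs. WT 55 lay within the Hom and the Het range and the other 2 WT libraries well below it. The log2 fold change of Hom over WT was 0.71 (SE 0.33, adjusted p = 0.37). *Srsf7* and *Srsf3*, related SR proteins that shuttle to the cytoplasm and help export mRNA, leaned the same way. *Srsf7* had 123, 176 and 124 CPM in Hom HCs, 150.2, 135 and 136 CPM in Het HCs and 100.4, 84.3 and 115 CPM in WT HCs. All Hom and all Het libraries were above the 3 WT libraries (Hom over WT log2 0.50, SE 0.28, adjusted p = 0.46). *Srsf3* had 117, 108 and 76.5 CPM in Hom HCs, 77.5, 113 and 100.4 CPM in Het HCs and 42.6, 85.9 and 81.2 CPM in WT HCs, with overlap between all genotypes (Hom over WT log2 0.53, SE 0.34, adjusted p = 0.55).

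Counted over the 30 genes, the 3 Hom libraries were all above the 3 WT libraries for 2 genes, *Srsf7* and *Hnrnpa1* (background 7.61%). They were all below them for 3 genes, *Hnrnpa0*, *Srsf11* and *Srsf4* (background 8.9%). The shares of the 30 genes, 6.67% and 10%, were near those of all genes. *Srsf11* and *Srsf4* are named because of this separation, seen in their values. *Srsf11*, known in neurons as a partner of SRRM4 at microexons, had 99.3 to 124 CPM in Hom and 135 to 184 CPM in WT HCs (log2 -0.52, SE 0.28, adjusted p = 0.43). *Srsf4* had 98.5 to 116 CPM in Hom and 128 to 167 CPM in WT HCs (log2 -0.45, SE 0.28, adjusted p = 0.54), and 43% of its exon bases are shared with a transcript on the other strand.

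The classical SR genes thus pointed both ways between Hom and WT. Of the 7 that were compared, 3 (*Srsf2*, *Srsf3*, *Srsf7*) had fold changes above 0 and 4 (*Srsf4*, *Srsf5*, *Srsf6*, *Srsf9*) below 0, and all 3 other SR genes (*Srsf10*, *Srsf11*, *Srsf12*) were below 0. *Srsf2* had 281, 317 and 298 CPM in Hom HCs, 218, 252 and 217 CPM in Het HCs and 294, 302 and 214 CPM in WT HCs. The Hom libraries were the tightest and lay within or just above the WT range (log2 0.14, SE 0.24). *Srsf5* had 212, 356 and 188 CPM in Hom HCs, 205, 398 and 320.4 CPM in Het HCs and 261, 262 and 288 CPM in WT HCs. Its WT libraries were close together inside the Hom range (log2 -0.10, SE 0.28). The sign of the *Srsf2* and *Srsf5* values depended on the libraries and terms in the model.

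The hnRNP genes were examined by subfamily. Of the A/B type, *Hnrnpa0* and *Hnrnpa2b1* were at the low end and *Hnrnpa1* at the high end, with *Hnrnpa3* and *Hnrnpab* between them. The D type was split in the same manner: beside *Hnrnpd*, its neighbour in sequence *Hnrnpdl* had means of 201 ± 42.6 CPM in Hom and 183 ± 58.8 CPM in WT HCs (SD, n = 3 each). *Hnrnpf*, *Hnrnph1*, *Hnrnph2* and *Hnrnph3*, which bind runs of G, included 2 genes above and 2 below 0. *Hnrnph3* had 40.9 ± 7.15 CPM in Hom, 65.7 ± 14.9 CPM in Het and 60.9 ± 27.0 CPM in WT HCs. *Hnrnpc*, which binds U-rich tracts, had 169 ± 22.3 CPM in Hom and 138 ± 17.3 CPM in WT HCs (log2 0.29, SE 0.26). *Hnrnpk*, which binds C-rich RNA, had 149 ± 6.54 CPM in Hom and 155 ± 48.8 CPM in WT HCs, and *Hnrnpm* 330.3 ± 63.9 CPM in Hom and 309.5 ± 95.3 CPM in WT HCs. Of the U type, *Hnrnpul1* averaged 274 ± 46.1 CPM in Hom and 320.2 ± 130.0 CPM in WT HCs, and *Hnrnpul2* 377 ± 59.4 CPM in Hom and 456 ± 109 CPM in WT HCs (log2 -0.27, SE 0.24, adjusted p = 0.70). In no subfamily of 2 or more genes did every gene reach an unadjusted p under 0.05.

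**Figure D3:**
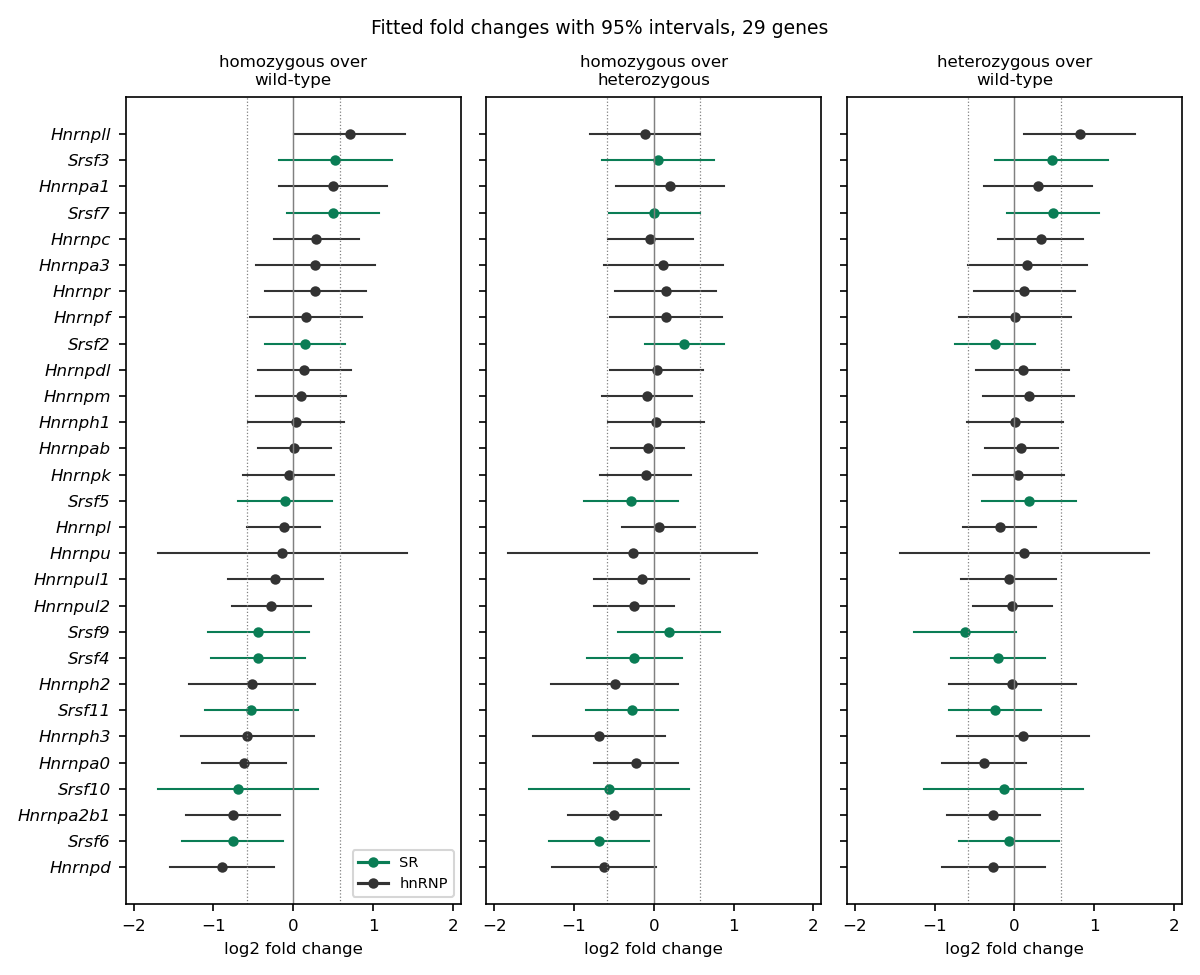
Fitted log2 fold changes of 29 genes with 95% intervals for Hom over WT, Hom over Het and Het over WT, SR genes in green and hnRNP genes in black, in the order of the first panel. Solid lines mark no change and dotted lines a 1.5-fold change. The intervals of *Hnrnpd*, *Hnrnpa2b1*, *Srsf6*, *Hnrnpa0* and *Hnrnpll* leave out 0 in the Hom over WT panel before adjustment for 15184 genes. *Srsf12*, whose interval is several times wider, is not drawn.

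The Het HCs were compared with both other genotypes to place the effect of 1 allele, and these comparisons share libraries with the one above. Between Het and WT, 0 of the 30 genes were called by edgeR, and the background was 0% since no gene of all those tested was called. DESeq2 called 0 of the 30 (background 0.303%) and limma-voom 0 of the 30 (background 0.00659%). At an unadjusted p under 0.05 there was 1 gene (background 4.52%), *Hnrnpll*, with a log2 fold change of Het over WT of 0.82 (SE 0.33, adjusted p = 1). The next gene with a higher value in Het HCs was *Srsf7* (log2 0.49, SE 0.28). The smallest p on the lower side was that of *Srsf9*, the closest relative of *Srsf1*. *Srsf9* had 104, 81.1 and 78.0 CPM in Hom HCs, 68.0, 87.4 and 75.8 CPM in Het HCs and 146, 112 and 97.4 CPM in WT HCs. All 3 Het libraries were below the 3 WT libraries (Het over WT log2 -0.62, SE 0.31, adjusted p = 1), whereas the Hom libraries overlapped both (Hom over WT log2 -0.44, SE 0.31, adjusted p = 0.60). *Hnrnpa0* came next (log2 -0.38, SE 0.25). The Het libraries were all below the WT libraries for 1 of the 30 genes (background 5.38%), *Srsf9*. They were all above them for 3 of the 30 (background 5.41%), *Srsf7*, *Hnrnpc* and *Hnrnpab*. In all, 17 of the 30 fold changes of Het over WT were above 0 (background 47.4%).

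Between Hom and Het, 0 of the 30 genes were called by edgeR (background 0.00659%), by DESeq2 (background 0.968%) or by limma-voom (background 0.994%). *Srsf6* was the 1 gene at an unadjusted p under 0.05 (background 6.78%), with a log2 fold change of Hom over Het of -0.69 (SE 0.30, adjusted p = 0.70). *Hnrnpd* followed (log2 -0.63, SE 0.31, adjusted p = 0.73), and its 3 Hom libraries were below its 3 Het libraries. On the higher side were *Srsf2* (log2 0.38, SE 0.24), whose Hom libraries were all above its Het libraries, and *Srsf9* (log2 0.19, SE 0.31). The Hom libraries were all below the Het libraries for 4 of the 30 genes (background 7.27%), *Hnrnpd*, *Hnrnpa2b1*, *Hnrnph3* and *Hnrnpul2*. They were all above them for 2 of the 30 (background 6.95%), *Srsf2* and *Hnrnpr*. Of the 30 fold changes, 11 were above 0 (background 49.9%).

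A slope per Dmdo allele across the 3 genotypes was called for 0 of the 30 genes by edgeR, against 1.78% of all genes. At an unadjusted p under 0.05 there were 4 of the 30 (13.3%, background 13.2%). The smallest adjusted p was that of *Hnrnpd*, whose fitted level differed by -0.45 on the log2 scale per allele (SE 0.15, adjusted p = 0.18). DESeq2 called its slope (1 of 30 genes, background 6.84%), limma-voom called that of *Hnrnpa0* (1 of 30, background 5.16%), and edgeR without WT 44 called 4 of the 30 (background 6.15%).

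**Figure D4:**
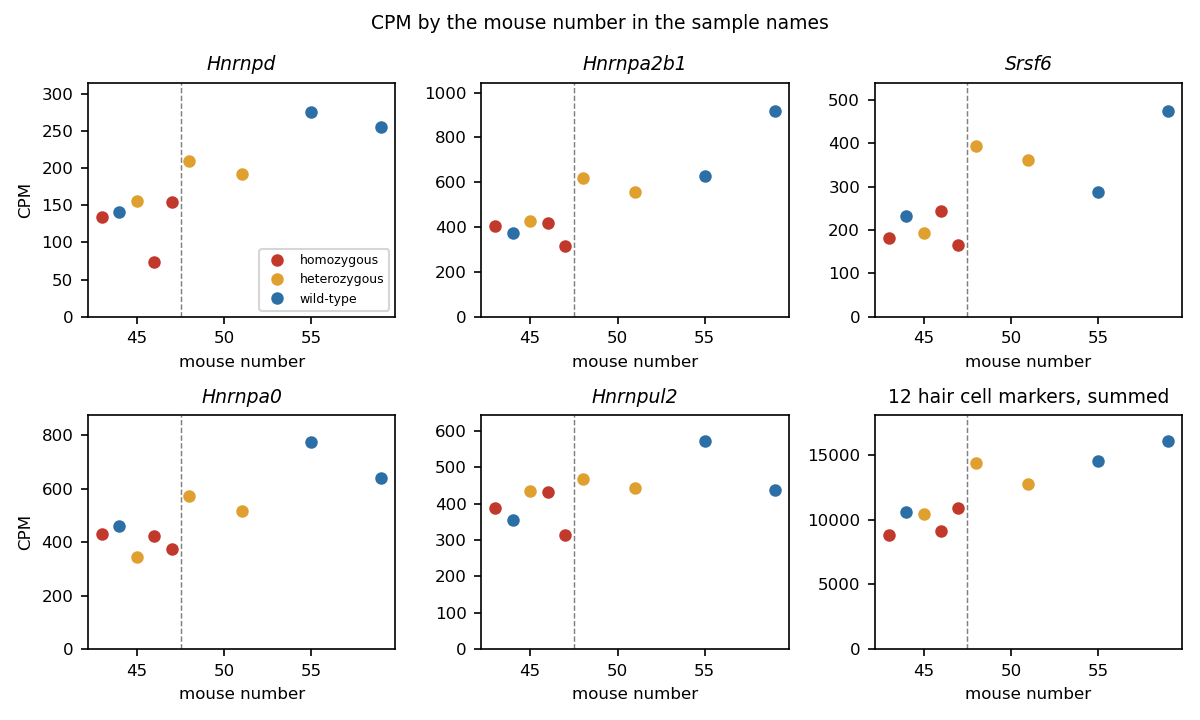
CPM of *Hnrnpd*, *Hnrnpa2b1*, *Srsf6*, *Hnrnpa0* and *Hnrnpul2* and the summed CPM of 12 HC markers against the mouse number in the sample names, 1 point per library, coloured by genotype. In every panel the 5 libraries of mice 47 and lower (left of the dashed line: 3 Hom, 1 Het, 1 WT) lie below the 4 libraries of mice 48 and higher (2 Het, 2 WT).

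The levels of the 4 genes with the lowest p also followed the mouse numbers. What the numbers stand for is not explained in the labels or the methods, and every Hom mouse has a number of 47 or lower, as do Het 45 and WT 44. The boundary of 47 is the highest Hom number, so this split is not independent of genotype. A gene with low Hom libraries can follow it through them. For 5 of the 30 genes (16.7%, background 3.75%), *Hnrnpd*, *Hnrnpa2b1*, *Srsf6*, *Hnrnpa0* and *Hnrnpul2*, all 5 libraries of mice 47 and lower were below all 4 libraries of mice 48 and higher. For 0 of the 30 they were all above (background 3.61%). *Hnrnpul2*, which acts in the repair of DNA ends beside its binding of RNA, had 387, 431, 314, 435 and 356 CPM in mice 43, 46, 47, 45 and 44, and 467, 442, 572 and 439 CPM in mice 48, 51, 55 and 59. With the 2 number ranges as a term in the model, the log2 fold change of Hom over WT was -0.42 (SE 0.33) for *Hnrnpd*, -0.19 (SE 0.25) for *Hnrnpa2b1*, -0.17 (SE 0.28) for *Srsf6* and -0.16 (SE 0.23) for *Hnrnpa0*, each nearer to 0 than without the term. Over the 30 genes, 15 values were nearer to 0 with the term, 15 were farther from it, and 4 changed sign. Those of *Srsf3* (1.06, SE 0.39, adjusted p = 0.59) and *Hnrnpm* (0.58, SE 0.26, adjusted p = 0.67, against 0.09 without the term) were the 2 at an unadjusted p under 0.05 in that model. *Hnrnpll* had 0.79 (SE 0.42) and *Hnrnpu*, at a low level, 1.39 (SE 1.04, against -0.14 without the term). Among mice 47 and lower, which hold 1 WT mouse, no test within the range had replicates on both sides. The summed HC markers split at the same number, 8817 to 10942 CPM in the 5 libraries of lower numbers and 12772 to 16087 CPM in the 4 of higher numbers, and their part in these values was not tested.

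*Srsf12* and *Hnrnpu* had the lowest levels per length of each family, 0.48 and 2.52 RPKM, and the widest spread within a genotype. *Srsf12* had 60, 1 and 14 reads in Hom, 57, 128 and 0 reads in Het and 89, 12 and 13 reads in WT libraries, so that single mice differed more than the genotypes. *Hnrnpu*, a nuclear scaffold protein that also tethers *Xist* RNA to chromatin, had 18.2, 50.3 and 11.4 CPM in Hom HCs, 29.1, 35.8 and 30.8 CPM in Het HCs and 2.75, 30.6 and 54.5 CPM in WT HCs. WT 44, at 60 reads, was the lowest library and WT 59 the highest, and the Hom libraries lay between them. The coefficient of variation of *Hnrnpu* in WT was 88.5%, and at this spread no difference between the genotypes was detectable.

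What a gene count can show of these genes is limited by their transcripts. Of the 30 genes, 18 (60%) have an annotated transcript of the nonsense-mediated decay class (8 of 10 SR and 10 of 20 hnRNP genes), against 28.0% of 13024 protein-coding genes. A retained-intron transcript is annotated for 21 of the 30 (70%), against 57.8%. Reads of productive and unproductive transcripts fall into 1 count per gene, so a shift between them was not measured. Exons shared with another gene add a second limit. The methods of the study name a directional library kit, but neither they nor the labels say whether reads were counted by strand. Such overlap covered 29.1% of the exon bases of *Hnrnpab* (with *Phykpl*) and 15.6% of *Srsf2* (with *Mettl23*), both on opposite strands. It covered 14.7% of *Hnrnpm* with *March2* on the same strand, where counting by strand would not separate the 2 genes. Processed copies exist as well: the *Srsf3* copy ending in -ps had 18 to 496 reads per library. *Hnrnpa1l2-ps2* had 129, 671 and 105 reads in Hom, 66, 11 and 76 reads in Het and 5, 154 and 4 reads in WT libraries. How reads were divided between such copies and *Srsf3* or *Hnrnpa1* is uncertain.

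The other genes of the splicing machinery were then counted by list between Hom and WT, as the setting of the SR and hnRNP genes; the background of 1.15% called holds here too. Of 9 SR kinases, 0 were called, with a median log2 fold change of -0.20; the smallest p were those of *Clk2* (log2 -1.10, adjusted p = 0.22) and *Clk3* (log2 -0.56, adjusted p = 0.42). Among 18 SR-related proteins and their import receptors, 0 were called, 3 had fold changes above 0, and the median was -0.49. *Srrm2*, the scaffold of nuclear speckles, had 264, 307 and 334 CPM in Hom HCs, 378, 947 and 708 CPM in Het HCs and 351, 919 and 1072 CPM in WT HCs (Hom over WT log2 -1.37, adjusted p = 0.12). Its WT 44 library was near the Hom libraries, and *Scaf1*, which binds RNA polymerase II, came next (log2 -1.04, adjusted p = 0.16). With the mouse number ranges as a term, the log2 fold change was -0.35 for *Srrm2* and -0.25 for *Scaf1*, and -0.48 for *Clk2*. Summed over the 18 genes, levels were 2253 to 2690 CPM in the 5 libraries of mice 47 and lower and 3076 to 4921 CPM in the 4 of higher numbers.

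Of 23 hnRNP-type proteins with other names, 0 were called (median log2 -0.26), and the smallest p belonged to *Khsrp*, which promotes decay of AU-rich mRNAs (log2 -0.97, adjusted p = 0.24), and *Safb* (log2 -0.60, adjusted p = 0.36). With the mouse number term they had -0.39 and -0.085, and *Khsrp* had -0.41 without WT 55. In the core of the U1, U2 and tri-snRNP particles, 1 of 31 genes was called, and the list median was 0.20. *Snrpd3*, a protein of the Sm ring shared by these particles, had 167, 175 and 163 CPM in Hom HCs, 143, 112 and 117 CPM in Het HCs and 76.2, 67.9 and 90.8 CPM in WT HCs. It was higher in Hom HCs, with no overlap between any 2 genotypes (log2 1.11, SE 0.28, adjusted p = 0.075). Of all genes tested, 7.61% had all Hom above all WT libraries. All Het were above all WT libraries for 5.41%, and all Hom above all Het libraries for 6.95%. *Sf3b5*, of the SF3b complex that recognizes the branch point, followed (log2 0.95, adjusted p = 0.28). Of 10 nonsense-mediated decay factors, 0 were called, and the smallest p were those of *Upf3b* (log2 0.70, adjusted p = 0.49) and *Smg5* (log2 -0.44, adjusted p = 0.52).

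**Figure D5:**
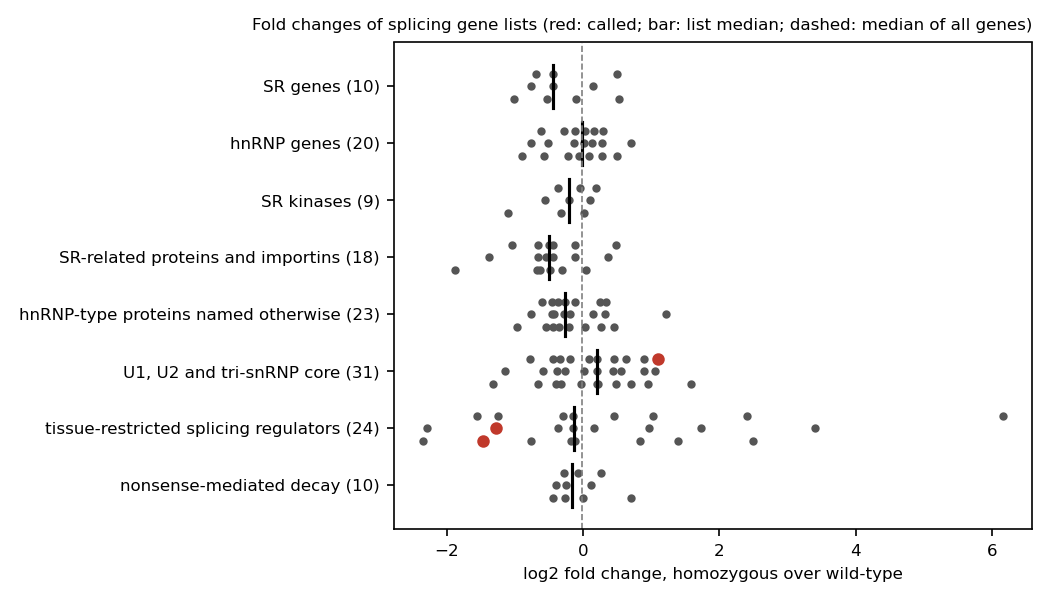
Fitted log2 fold changes of Hom over WT for the SR and hnRNP genes and 6 lists of other splicing genes, 1 point per gene, with the number of genes in parentheses, called genes in red, a black bar at the list median and a dashed line at the median of all genes. *Snrpd3* (right) and *Srrm3* and *Srrm4* (left) are the 3 called genes, and no SR or hnRNP gene is called.

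The tissue-restricted regulators held the remaining calls, 2 of 24 genes, both lower in Hom HCs (list median log2 -0.13). *Srrm3* and *Srrm4* are the microexon regulators named above. *Srrm3* had 34.9, 31.5 and 55.7 CPM in Hom HCs, 67.9, 95.5 and 87.0 CPM in Het HCs and 84.6, 112 and 141 CPM in WT HCs. Every Hom library was below every Het and WT library (Hom over WT log2 -1.46, SE 0.35, adjusted p = 0.070). Of all genes tested, 8.9% had all Hom below all WT libraries and 7.27% had all Hom below all Het libraries. *Srrm4* had 93.2, 88.5 and 122 CPM in Hom HCs, 117, 221 and 161 CPM in Het HCs and 159.9, 256 and 316 CPM in WT HCs, with all Hom below all WT libraries (log2 -1.27, SE 0.31, adjusted p = 0.070). Each of the 3 calls in these lists was lost without any 1 of Hom 43, Hom 46, Hom 47, Het 51, WT 55 or WT 59, with adjusted p of 0.11 to 0.28. *Srrm3* was called in 9, *Srrm4* in 10 and *Snrpd3* in 9 of 20 alternative settings each. None of them was called in a model with the mouse number ranges as a term (log2 -1.11, -0.71 and 1.02). That model called only 3 genes higher and 22 lower of all 15184, against 36 and 139 in the main test. Without Hom 43, Hom 46 or Hom 47, higher and lower calls over all genes were 4 and 16, 18 and 53, and 5 and 21. Without Het 51, WT 55 or WT 59 they were 10 and 61, 14 and 61, and 7 and 19. Where fewer genes were called at all, a lost call says little about these genes. Whether the difference between these genes and the SR and hnRNP genes exceeds the spread between mice was not tested.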

How the data were processed

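RNA of sorted P1 HCs was sequenced in 9 libraries, 1 per mouse and 3 per genotype. The authors deposited raw read counts per Ensembl gene for 43808 genes in each library, without normalization. The submitters' processing notes name FastQC, HISAT2 2.0.4 and HTSeq with the GRCm38 build. Neither the labels nor the methods state whether reads were counted by strand. Groups and mouse numbers came from the sample labels.

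The members and gene lists were chosen with earlier results of these data known. A gene was tested when it reached 20 reads in 2 or more libraries of any genotype (15184 genes). The main test was the edgeR 4.0.16 quasi-likelihood test (robust, TMM, all 9 libraries in 1 fit) with Benjamini-Hochberg adjustment over all tested genes, called at a false discovery rate of 10% and a fold change above 1.5. Every adjusted p is from this test, every SE is that of the log2 fold change, and the slope per allele had no fold threshold. With 3 mice against 3, the smallest p of an exact permutation test is 0.1. DESeq2 1.42.0 and limma 3.58.1 (voom with sample quality weights) were run as alternatives, besides other normalizations, filters, thresholds, model terms and left-out libraries. CPM used TMM factors, and RPKM divided CPM by the merged exon length in GENCODE on GRCm38. Library totals, 18175317 to 34873964 reads, limit precision less than the spread between mice: replicates of 1 genotype differed far beyond sampling noise in all 9 pairs, with a chi-square per gene of 103 to 242.

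Genes with values in every library were those called, the 4 of smallest p in each direction between Hom and WT, the 2 in each direction for the other contrasts, the 3 highest SR and hnRNP genes and the lowest of each per length, and the 2 of largest spread, and in each other list the called genes and the 2 of smallest p. *Hnrnpul2*, *Srsf10*, *Srsf11*, *Srsf4* and *Hnrnpr* were described further after their values or sites were seen. The mature miRNA came from RefSeq and the 3′ UTRs from the longest annotated coding transcript. Seed matches were searched on the transcript strand only and do not overlap each other. Protein sequences were not used here.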

Additional observations from a re-analysis of the deposited data

How the results depend on the processing

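No paired analysis was possible because the replicate numbers are mouse numbers, and no number occurs in more than 1 genotype. With 1 library left out at a time, edgeR called between 0 and 3 of the 30 genes between Hom and WT, and between 0 and 4 for the slope per allele, and the calls arose only without WT 44. In that setting the Hom and WT mice lie wholly in different mouse number ranges, so genotype and range coincide between them. For the slope, DESeq2 called 1 gene and limma-voom 1. In 21 of 22 alternative settings between Hom and WT, and in all 22 each for Het against WT and Hom against Het, none of the 30 genes was called. Over all genes the settings called 12 to 966 genes between Hom and WT. They called 0 to 46 between Het and WT and 0 to 151 between Hom and Het. Where few genes were called at all, 0 of 30 says little about these genes.

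For the 21 genes whose fold change of Hom over WT is given above, 400 of 420 recomputed log2 fold changes had the same sign and no call, 3 had the same sign with a call, and 17 changed sign. Without both WT 59 and Hom 46, *Srsf10* had 0.086 and *Srsf2* -0.023. *Srsf5* had 0.17 with the mouse number term and 0.11 with the *Xist* and *Ddx3y* term, and -0.41 to 0.073 with 1 library left out. After correction for GC content and length, *Hnrnpab* had -0.016 and *Hnrnpl* 0.027, and *Hnrnpab* had -0.0092 to 0.070 with 1 library left out. *Hnrnpm* had -0.033 with limma-voom, *Hnrnpu* had 1.39 with the mouse number term, and with 1 library left out they had -0.12 to 0.30 and -0.97 to 0.67. The cause of these sign changes was not tested.

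For the 12 named genes of the other lists, 194 of 240 recomputed values stayed on the same side of the threshold, 32 lost a call, 14 gained one and 0 changed sign. *Srrm2* was called by DESeq2 (log2 -1.36) and without WT 44 (-1.71), among other settings, and had -0.35 with the mouse number term (adjusted p = 0.81). Over all genes, calls between Hom and WT ran from 12 with the *Xist* and *Ddx3y* term to 966 with DESeq2, against 175, those between Het and WT from 0 to 46, against 0, those between Hom and Het from 0 to 151, against 1, and slopes from 15 to 1038, against 270. At a median distance of 0.60 on the log2 scale between a fitted value and the bound of its 95% interval, changes under 1.5-fold were mostly beyond what 3 mice per genotype can show.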
